A study of Mus musculus with 12 samples.

Results

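The Notch pathway genes examined here are 10 genes of its signalling core, taken by name from the deposited RNA table: the receptors Notch1, Notch2 and Notch3, the ligands Jag1, Jag2, Dll1 and Dll3, the sheddase Adam10, the DNA-binding factor Rbpj and the feedback inhibitor Nrarp. All 10 were found among the 23427 genes of the table. The genes are taken by symbol, and no measured value enters that rule, but the members were chosen with earlier results of these data known. Values for 7 of them stood in all 4 libraries, and Dll1, Dll3 and Nrarp were blank in both libraries of the Hey1 line.

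The study asked how the repressors Hey1 and Hey2 change gene expression when switched on in cardiomyocytes made in culture from CM7/1, a mouse embryonic stem cell line. The 4 RNA libraries were Hey2-line cells given 1000 ng/ml doxycycline for 48 h (induced), Hey2-line cells without it (uninduced), Hey1-line cells given the same dose for the same time, and Hey1-line cells without it. Each group was 1 library, so no value has a replicate check, and intervals in parentheses are 95% intervals of counting error only. The 8 chromatin samples of the series were not analysed here. Doxycycline was the inducer in both lines and no RNA library came from treated cells lacking an inducible Hey gene, so a drug effect and an effect of Hey1 or Hey2 cannot be told apart. Whether a line is 1 clone, and how many cultures went into a library, is not given in the sources used here.

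Notch receptors are single-pass membrane proteins that are switched on by ligands of the Jagged and Delta-like families on a neighbouring cell. Ligand binding lets ADAM10 cut the receptor outside the membrane and gamma-secretase cut it within, and the freed intracellular domain joins RBPJ on DNA and turns on genes of the Hes and Hey families. In the heart the pathway acts in the endocardium, in the cushions of the atrioventricular canal and in smooth muscle, and Hey1 and Hey2 are among its best-known effectors. The libraries thus bear on the upstream part of the pathway in cells in which one of its downstream repressors was induced.

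Levels are RPKM as deposited, which divides reads by gene length and library total, so genes can be compared with each other within a library. Whole read numbers were recovered from the steps of the values. The libraries held 4182141 reads in listed genes (induced Hey2 line), 2296145 (uninduced Hey2 line), 3142314 (induced Hey1 line) and 3151196 (uninduced Hey1 line). A blank cell was read as fewer than about 5 reads in the Hey2 line and fewer than about 10 in the Hey1 line. The induced genes behaved as labelled. Hey2 stood at 6.59 RPKM in the induced Hey2 line and was blank in the uninduced one (floor 0.343 RPKM), at 0.895 and 0.694 RPKM in the induced and uninduced Hey1 line, and Hey1 stood at 8.59 and 0.735 RPKM in the induced and uninduced Hey1 line. The cultures of the 2 lines differed widely in make-up by marker genes. All 6 cardiomyocyte markers (Myh6, Myh7, Tnnt2, Actn2, Ryr2 and Nppa) were listed in every library, with summed levels of 656 and 603 RPKM in the induced and uninduced Hey2 line and 7674 and 6629 RPKM in the induced and uninduced Hey1 line. All 6 pluripotency markers were listed too, at 282 and 261 RPKM in the Hey2 line and 24.6 and 32.8 RPKM in the Hey1 line, in the same order. In bulk RNA a gene's lower level from fewer cells of a type cannot be told apart from less RNA per cell.

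Promoter windows were available in RefSeq for all 10 genes (build GRCm38.p6, 250 bases before the gene's start and 50 after it). Of these, 4 are shown: Jag1 and Notch3, which differed most with Hey1 and Hey2 induction among the members compared, Rbpj, whose own product binds the letters TGGGAA, and Nrarp, a direct Notch target in the mouse. Each is written 5′ to 3′ on the gene's strand, and capitals mark a match, on either strand, to TGGGAA (core of RBPJ sites), CACGTG or CACGCG (letters bound by Hey proteins).
Jag1 (chr2:137116471-137116770, minus strand): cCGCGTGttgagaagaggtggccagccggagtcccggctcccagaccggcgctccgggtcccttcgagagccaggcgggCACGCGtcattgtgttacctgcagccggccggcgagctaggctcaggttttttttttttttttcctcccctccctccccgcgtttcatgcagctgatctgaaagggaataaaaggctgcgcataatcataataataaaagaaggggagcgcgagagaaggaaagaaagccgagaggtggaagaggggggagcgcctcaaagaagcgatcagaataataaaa
Notch3 (chr17:32166841-32167140, minus strand): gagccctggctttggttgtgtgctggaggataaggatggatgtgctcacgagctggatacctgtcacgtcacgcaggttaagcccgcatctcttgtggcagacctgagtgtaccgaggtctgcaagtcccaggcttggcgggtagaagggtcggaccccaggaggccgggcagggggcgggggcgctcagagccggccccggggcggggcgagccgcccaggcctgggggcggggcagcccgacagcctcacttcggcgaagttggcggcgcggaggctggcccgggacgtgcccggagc
Rbpj (chr5:53590096-53590395, plus strand): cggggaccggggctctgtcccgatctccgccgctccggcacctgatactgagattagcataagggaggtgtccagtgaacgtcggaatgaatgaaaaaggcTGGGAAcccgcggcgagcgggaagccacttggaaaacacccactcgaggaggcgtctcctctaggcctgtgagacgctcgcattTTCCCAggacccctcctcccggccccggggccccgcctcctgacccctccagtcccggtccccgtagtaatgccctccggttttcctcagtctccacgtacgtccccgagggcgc
Nrarp (chr2:25180508-25180807, plus strand): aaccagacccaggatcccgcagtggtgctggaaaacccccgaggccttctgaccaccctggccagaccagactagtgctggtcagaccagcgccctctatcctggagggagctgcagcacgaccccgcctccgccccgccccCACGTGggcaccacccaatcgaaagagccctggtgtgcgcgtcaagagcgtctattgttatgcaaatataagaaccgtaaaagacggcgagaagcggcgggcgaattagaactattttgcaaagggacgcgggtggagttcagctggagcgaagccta

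The Jag1 window held 2 matches to CACGCG, 249 and 171 bases before the start, and the Notch3 window held no match to any of the 3 motifs. The first of 2 Rbpj windows held 2 matches to TGGGAA, 149 and 65 bases before the start. The second overlaps the first and held 1, which is the same site as the one 65 bases before the first window's start of the gene. No window of another member held that motif, which stood in 25.6% of all 32851 windows and 22.2% of the 11251 windows of compared genes. The Nrarp window held 1 CACGTG, 108 bases before the start, and Adam10 was the other member with one. CACGTG thus stood in 2 of the members' 12 windows, in 7.15% of all windows and in 10.3% of those of compared genes. CACGCG was found in 4 of the 12 windows (of Jag1, Jag2, Notch2 and Dll1), in 9.27% of all windows and in 17.8% of those of compared genes. A match describes the letters only, and binding was not measured here.

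**Figure D1:**
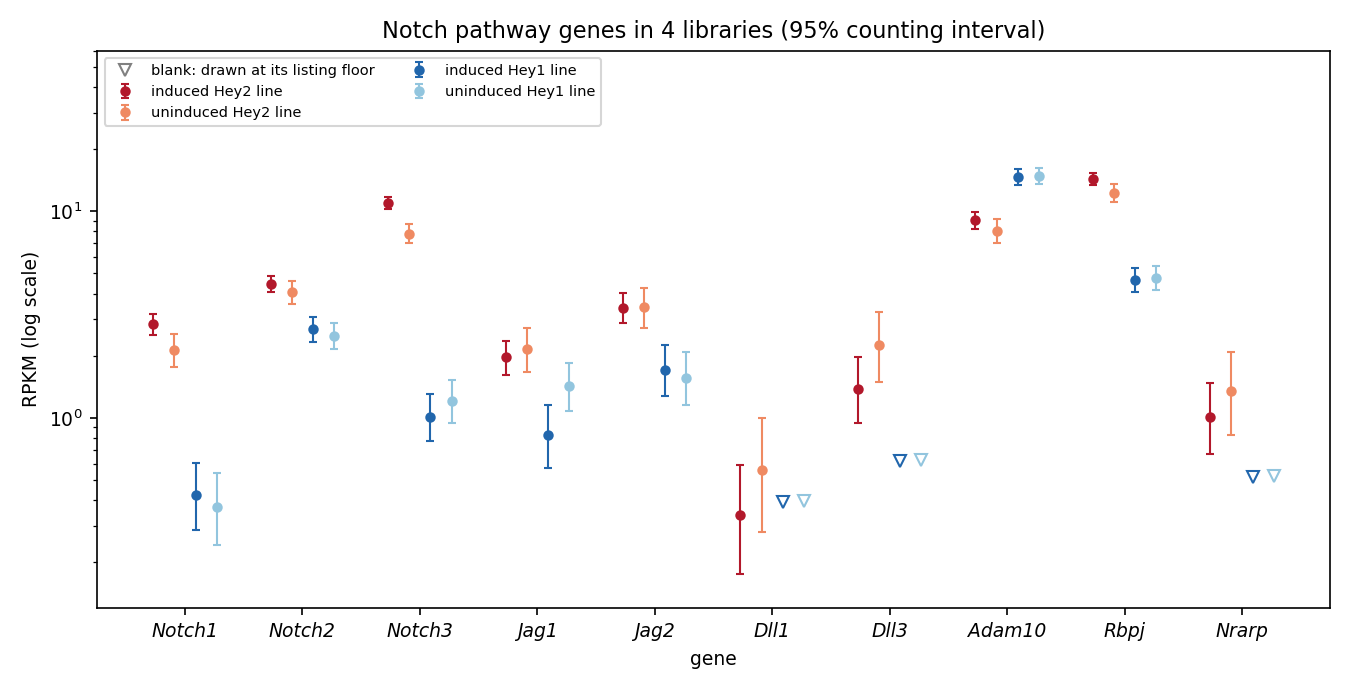
RPKM (log axis) of the 10 Notch pathway genes in the 4 libraries, 1 point per library with its 95% counting interval, and open triangles at the listing floor where the cell was blank. Notch3 stood at 11.0 and 7.79 RPKM in the Hey2 line and at 1.007 and 1.21 RPKM in the Hey1 line, while Adam10 was higher in the Hey1 line.

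All 3 receptors had higher levels in both libraries of the Hey2 line than in either library of the Hey1 line. Notch3, the receptor of vascular smooth muscle and pericytes, stood at 11.0 RPKM (10.3 to 11.7) in the induced and 7.79 RPKM (7.01 to 8.65) in the uninduced Hey2 line, from 907 and 356 reads. In the Hey1 line it stood at 1.007 RPKM (0.769 to 1.30) in induced and 1.21 RPKM (0.943 to 1.52) in uninduced cells, from 60 and 71 reads. Both Hey2-line libraries were thus far above both Hey1-line libraries, and the 2 Hey1-line values lay within each other's intervals. The Hey2 line was 6.45-fold higher than the Hey1 line without induction (4.99 to 8.45) and 10.9-fold higher with it (8.41 to 14.4).

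Notch1, which is needed in the endocardium for valve and trabecula formation in the mouse, stood at 2.83 RPKM (2.51 to 3.19) in the induced and 2.13 RPKM (1.76 to 2.55) in the uninduced Hey2 line. The induced and uninduced Hey1-line libraries held 0.422 RPKM (0.284 to 0.602) and 0.370 RPKM (0.242 to 0.543), from 30 and 26 reads. Here too the lines stood apart, by 5.74-fold without induction (3.73 to 9.16) and 6.72-fold with it (4.605 to 10.2). Notch2, which signals with Notch3 in smooth muscle, varied least among the receptors. Its levels were 4.47 RPKM (4.08 to 4.88) and 4.06 RPKM (3.56 to 4.597) in the induced and uninduced Hey2 line, and 2.68 RPKM (2.33 to 3.06) and 2.50 RPKM (2.16 to 2.87) in the induced and uninduced Hey1 line. The Hey2 line was 1.63-fold higher (1.34 to 1.97) without induction and 1.67-fold higher (1.42 to 1.97) with it.

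The leading receptor differed between the lines. Notch3 made up 60.1% (57.8 to 62.4) and 55.8% (52.2 to 59.4) of the summed RPKM of the 3 receptors in the induced and uninduced Hey2 line, against 24.5% (19.3 to 29.8) and 29.7% (24.1 to 35.2) in the induced and uninduced Hey1 line. Notch2 led in the Hey1 line, at 65.2% (59.6 to 70.8) and 61.3% (55.5 to 67.1), and took 24.4% (22.5 to 26.4) and 29.0% (25.8 to 32.2) in the Hey2 line, induced before uninduced in each case. Notch1 was the lowest of the 3 in every library, and its interval overlapped that of no other receptor in any of them. Summed over the receptors, the level was 18.3 and 14.0 RPKM in the induced and uninduced Hey2 line and 4.11 and 4.07 RPKM in the induced and uninduced Hey1 line.

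**Figure D2:**
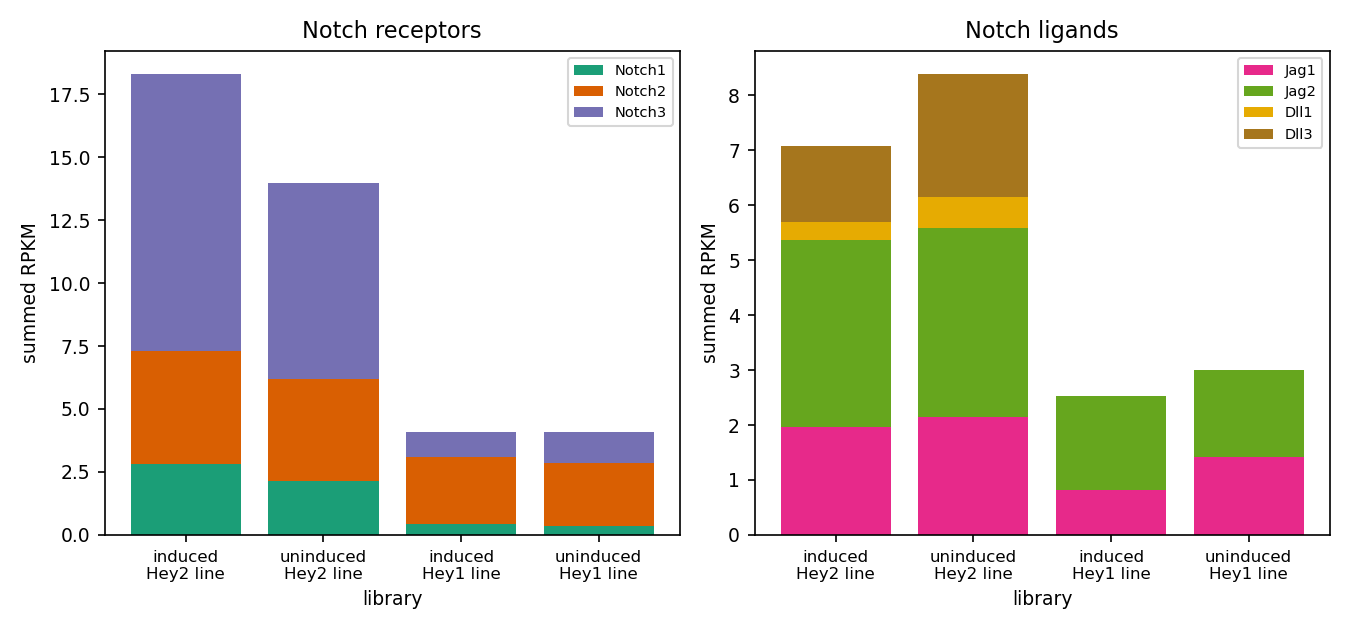
Summed RPKM of the Notch receptors (left) and ligands (right) in each library, split by gene, with blank cells drawn as absent. Notch3 was the largest receptor share in the Hey2-line bars (60.1% and 55.8%) and Notch2 in the Hey1-line bars (65.2% and 61.3%).

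Among the ligands, the Jagged genes were read in all libraries and the Delta-like genes only in the Hey2 line. Jag2 stood at 3.40 RPKM (2.87 to 4.01) and 3.43 RPKM (2.72 to 4.27) in the induced and uninduced Hey2 line, and at 1.71 RPKM (1.28 to 2.24) and 1.57 RPKM (1.15 to 2.08) in the induced and uninduced Hey1 line. The Hey2 line was 2.19-fold higher (1.51 to 3.21) without induction and 1.99-fold higher (1.44 to 2.79) with it. Jag1, the ligand mutated in most people with Alagille syndrome, which affects heart and vessels, stood at 1.97 RPKM (1.62 to 2.36) and 2.15 RPKM (1.67 to 2.73) in the induced and uninduced Hey2 line. It stood at 0.825 RPKM (0.572 to 1.15) and 1.43 RPKM (1.08 to 1.84) in the induced and uninduced Hey1 line. The induced Hey1-line library was therefore the lowest of the 4 for Jag1. Jag2 exceeded Jag1 in all 4 libraries, with intervals apart in the induced library of each line and overlapping in the uninduced one.

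Dll1, a ligand of somite and neural development, had 12 and 11 reads in the induced and uninduced Hey2 line, at 0.337 RPKM (0.174 to 0.589) and 0.558 RPKM (0.279 to 0.999). Its floor in the Hey1 line was 0.389 and 0.394 RPKM in induced and uninduced cells, so a difference between the lines was not detectable at this depth. Dll3, a divergent Delta-like protein that acts in somite segmentation, had 31 and 28 reads in the induced and uninduced Hey2 line, at 1.38 RPKM (0.939 to 1.961) and 2.25 RPKM (1.496 to 3.25). Without induction the Hey2 line was at least 3.60-fold higher than the Hey1 line's listing floor of 0.625 RPKM, and with induction at least 2.24-fold higher than the floor of 0.616 RPKM. Both bounds use the smallest gene length that gives whole reads. A longer length would lower the floor.

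Those ligand differences stood beside differences in other markers. The summed level of 6 primitive streak and presomitic mesoderm markers was 20.5 and 30.7 RPKM in the induced and uninduced Hey2 line, with 5 and 4 of 6 listed. In the induced and uninduced Hey1 line it was 2.80 and 4.37 RPKM, all of it from Mixl1. Neural markers summed to 4.54 and 4.81 RPKM in the induced and uninduced Hey2 line (3 of 6 listed) and to 18.7 and 16.5 RPKM in the induced and uninduced Hey1 line, all of it from Tubb3, and Neurog2 and Dcx were blank in all 4 libraries. Endothelial markers summed to 7.66 and 7.31 RPKM in the Hey2 line (6 and 5 of 6 listed) and 2.67 and 2.69 RPKM in the Hey1 line (2 and 3 of 6 listed), induced before uninduced. Blank cells add nothing to these sums, and the Hey1 line's listing floor was higher, so listed counts are not like for like. Induced Hey2-line Tie1 (0.273 RPKM) and Emcn (0.528 RPKM) lay under the induced Hey1-line floors of 0.344 and 0.913 RPKM. Cdh5 (0.967 RPKM) and Tek (1.06 RPKM) lay above theirs, 0.669 and 0.286 RPKM. Smooth muscle and pericyte markers differed in direction among themselves. Their sum was 172 and 139 RPKM in the induced and uninduced Hey2 line (6 and 5 of 6 listed) and 336 and 312 RPKM in the induced and uninduced Hey1 line (5 of 6 in each). Acta2, at 49.5 and 45.6 RPKM in the induced and uninduced Hey2 line and 253 and 217 RPKM in the induced and uninduced Hey1 line, had the largest difference of the list, and Cnn1 was also lower in the Hey2 line. Tagln stood at 111 and 82.5 RPKM in the induced and uninduced Hey2 line and 60.7 and 71.1 RPKM in the induced and uninduced Hey1 line. Pdgfrb, a pericyte receptor gene, stood at 1.011 and 0.711 RPKM in the induced and uninduced Hey2 line and 0.332 and 0.288 RPKM in the induced and uninduced Hey1 line. Both were thus higher in the Hey2 line, as Notch3 was, and so were the levels of Myh11 (0.567 and 0.551 against 0.462 and 0.367 RPKM), from 18 to 39 reads a library. Rgs5 was listed in the induced Hey2 line alone, from 5 reads, fewer than the Hey1 line's floor. Fibroblast markers summed to 78.0 and 60.4 RPKM in the induced and uninduced Hey2 line (6 of 6) and 36.8 and 42.6 RPKM in the induced and uninduced Hey1 line (5 of 6). The part of any of these, or of the pluripotency and cardiomyocyte markers, in the levels of the Notch genes was not tested.

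The modulators Rbpj and Adam10 differed between the lines in opposite directions. Rbpj had the highest level of the 10 genes in both Hey2-line libraries and Adam10 in both Hey1-line libraries. Rbpj, through which all 4 mammalian receptors act, stood at 14.4 RPKM (13.5 to 15.4) and 12.3 RPKM (11.1 to 13.5) in the induced and uninduced Hey2 line. It stood at 4.66 RPKM (4.05 to 5.34) and 4.77 RPKM (4.14 to 5.46) in the induced and uninduced Hey1 line. The Hey2 line was 2.57-fold higher (2.18 to 3.05) without induction and 3.10-fold higher (2.66 to 3.62) with it. RefSeq lists 3 pseudogenes of Rbpj, and it is not given how reads that match several places were counted, so its level is uncertain. Notch1, Notch2, Notch3, Jag2 and Adam10 overlap other annotated genes, and the handling of strand is not given either. Adam10 stood at 9.05 RPKM (8.22 to 9.95) and 8.07 RPKM (7.02 to 9.23) in the induced and uninduced Hey2 line, and at 14.6 RPKM (13.4 to 15.98) and 14.8 RPKM (13.6 to 16.2) in the induced and uninduced Hey1 line. It was 1.84-fold lower (1.56 to 2.17) in the Hey2 line without induction and 1.62-fold lower (1.42 to 1.84) with it.

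Nrarp, which is switched on by Notch and binds the active complex to shut it down, had 27 and 20 reads in the induced and uninduced Hey2 line, at 1.011 RPKM (0.666 to 1.47) and 1.35 RPKM (0.825 to 2.09). Its Hey1-line cells were blank, below 0.518 and 0.525 RPKM in induced and uninduced cells. The Hey2 line was at least 2.57-fold higher than that floor without induction and at least 1.95-fold higher with it. At the floor itself the counting interval of the induced comparison would reach from 0.916 to 4.52, so that bound is within counting error. The 3 genes blank in the Hey1 line are 3 of 10, and of all 14053 genes listed in both Hey2-line libraries 13.1% were blank in both of the Hey1 line.

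**Figure D3:**
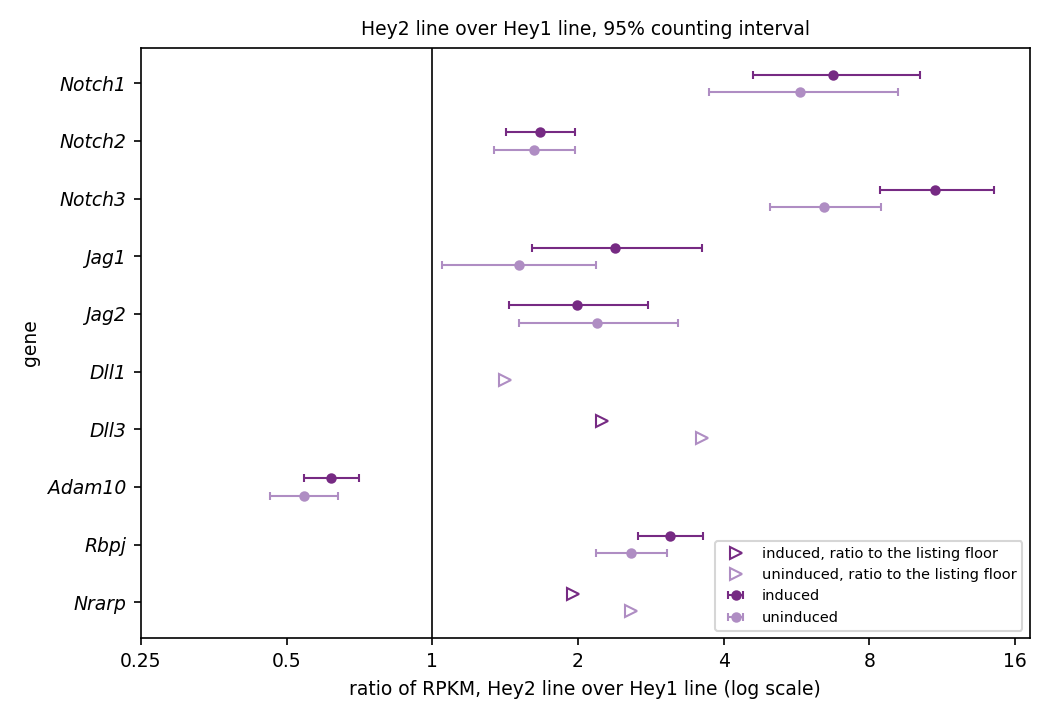
Ratio of RPKM (log axis), Hey2 line over Hey1 line, for induced and uninduced cells, with 95% counting intervals, and open triangles for ratios to the Hey1 line's listing floor. Notch3 lay at 10.9 and 6.45, Notch1 at 6.72 and 5.74, and Adam10 at 0.618 and 0.544.

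Set against all compared genes, the line differences of these genes were large only for some. A gene was compared when listed in all 4 libraries with a mean of at least 1 RPKM, which left 7 of the 10 and 10991 genes in all. Notch1 met that mean only through the Hey2 line, as it stood at 0.422 and 0.370 RPKM in the induced and uninduced Hey1 line. Its place among the 7 is therefore not independent of the line difference. On the log2(RPKM + 1) scale, which understates the change of low genes, 3 of the 7 were higher by at least 2-fold in the uninduced Hey2 line (Notch3 by 1.99, Rbpj by 1.20 and Notch1 by 1.19) and 0 were lower, where 19.7% and 13.1% of all compared genes were. The same 3 passed in induced cells, at 2.58, 1.45 and 1.43, beside 22.8% of genes higher and 12.3% lower. The counting interval of the plain ratio lay above 1 for 6 of the 7 without induction and below 1 for Adam10, where 44% and 28.9% of genes did. With induction the 6 and the 1 were as before, beside 48.1% and 29.2%.

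The median difference of the 7 was 0.79 without induction and 0.70 with it, against 0.20 and 0.27 over all compared genes. Median ratio scaling moved that all-gene median by −0.19 and −0.27. Under it 14.4% of genes were higher and 16.4% lower without induction, and 15.5% and 17.4% with it. Without induction Rbpj then stood at 0.99, just under 2-fold, and Adam10 at −1.02, just past it, while Notch1 (1.06) and Notch3 (1.81) stayed past. Under upper quartile scaling the shares were 16.1% and 15.3% without induction and 17.4% and 15.8% with it. The uninduced Notch3 difference exceeded that of 96.4% of compared genes.

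Genes with the most similar levels over the 4 libraries were sought for Adam10, the member with the highest mean, and for Notch3, the member with the largest line difference. By Euclidean distance of log2(RPKM + 1) over 4 libraries, Adam10 was nearest to Ankrd25 (0.06), Mrpl51 (0.07) and Anapc7 (0.09). Notch3 was nearest to Sgol2 (0.27), Mphosph1 (0.32) and Elf3 (0.33). Sgol2 stood at 9.34 and 7.11 RPKM in the induced and uninduced Hey2 line and 0.919 and 1.06 RPKM in the induced and uninduced Hey1 line. The distances are a description of 4 libraries that share 2 lines.

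Induction of Hey2 was the next comparison, and Notch3, Notch1 and Rbpj were the members higher beyond counting error. Notch3 was 1.41-fold higher in induced than in uninduced Hey2-line cells (1.248 to 1.601), at 11.0 and 7.79 RPKM. It was the only one of the 7 compared genes to pass a 25% difference on the log2(RPKM + 1) scale (the higher of the 2 values, each plus 1, at least 25% above the lower), at 0.45, and 0 passed downward. Of all compared genes 5.62% passed upward and 5.9% downward, and the difference of Notch3 exceeded that of 98.2% of them. Notch1 was 1.33-fold higher (1.07 to 1.67) and Rbpj 1.18-fold higher (1.05 to 1.32), and Notch2 stood at a ratio of 1.10 (0.943 to 1.29). Counting intervals thus lay above 1 for 3 of the 7, beside 8.04% of all 10987 genes with a ratio, and below 1 for 0 of the 7, beside 6.63%. In the same libraries the summed smooth muscle and pericyte markers were at 172 and 139 RPKM in induced and uninduced cells, with Tagln at 111 and 82.5 RPKM. In the same order, sums were 78.0 and 60.4 RPKM for fibroblast, 282 and 261 RPKM for pluripotency and 656 and 603 RPKM for cardiomyocyte markers. Endothelial markers summed to 7.66 and 7.31 RPKM. Neural (4.54 and 4.81 RPKM) and primitive streak and presomitic mesoderm sums (20.5 and 30.7 RPKM) were lower in induced cells. The part of any of these markers in the Notch3 difference was not tested.

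The ligands, the sheddase and Nrarp did not move beyond counting error with Hey2 induction. Jag1 had a ratio of 0.913 (0.669 to 1.253), Jag2 of 0.991 (0.748 to 1.32) and Adam10 of 1.12 (0.949 to 1.33). Dll3 and Dll1 had the lowest ratios, 0.614 (0.356 to 1.06) and 0.605 (0.244 to 1.51), and Nrarp 0.748 (0.404 to 1.41). These 3 rest on 11 to 31 reads a library, and the intervals hold both 1 and levels more than 2-fold lower. In the same libraries the primitive streak and presomitic markers summed to 20.5 and 30.7 RPKM in induced and uninduced cells, and their part in the values of Dll1 and Dll3 was not tested. The median difference of the 7 compared genes was 0.15, against −0.00 over all genes.

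Induction of Hey1 left most of the members within counting error. Jag1 was the exception, 1.73-fold lower in induced than in uninduced Hey1-line cells (1.11 to 2.72), at 0.825 and 1.43 RPKM from 34 and 58 reads. It was the only one of the 7 to pass a 25% difference on the log2(RPKM + 1) scale, by −0.41, and 0 passed upward, beside 12.6% of all genes downward and 3.28% upward. Its interval was also the only one of the 7 below 1, and 0 lay above, where 13.5% and 4.88% of all genes did. A count of 1 lower gene in 7 is close to that background. In the same libraries the pluripotency markers summed to 24.6 RPKM in induced and 32.8 RPKM in uninduced cells, with each of the 6 lower in induced cells. Mixl1, the only primitive streak marker listed there, stood at 2.80 and 4.37 RPKM, and the cardiomyocyte markers summed to 7674 and 6629 RPKM, in induced and uninduced cells. Their part in the Jag1 difference was not tested. Median ratio scaling turned the shares past a 25% difference into 8.22% lower and 6.92% higher, and upper quartile scaling into 9.44% and 5.56%, with Jag1 at −0.38 and −0.39.

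The other 6 had intervals that held 1. Notch1 had a ratio of 1.14 (0.651 to 2.004), Notch2 of 1.07 (0.879 to 1.31) and Notch3 of 0.834 (0.581 to 1.19). Jag2 stood at 1.09 (0.722 to 1.66), Rbpj at 0.977 (0.803 to 1.19) and Adam10 at 0.987 (0.870 to 1.12), with 504 reads in each library. The intervals were narrowest for Adam10, Rbpj and Notch2 and widest for Notch1. Dll1, Dll3 and Nrarp were blank in both libraries and give no ratio. The median difference was −0.02, against −0.06 over all compared genes.

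**Figure D4:**
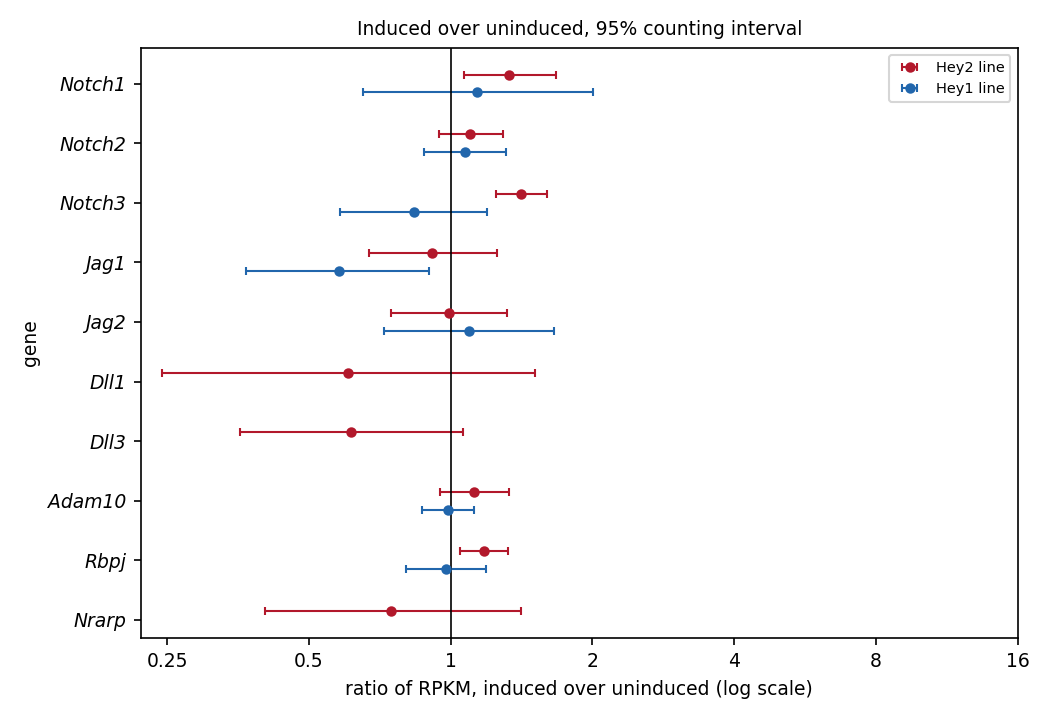
Ratio of RPKM (log axis), induced over uninduced, in the Hey2 line and in the Hey1 line, with 95% counting intervals; Dll1, Dll3 and Nrarp have no Hey1-line ratio. Notch3 lay at 1.41 in the Hey2 line and 0.834 in the Hey1 line, and Jag1 at 0.913 and 0.578.

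The inductions were also set against each other gene by gene, as the Hey2 ratio over the Hey1 ratio. For Notch3 this was 1.69 (1.18 to 2.44), so the 2 inductions differed beyond counting error. For Jag1 it was 1.58 (0.939 to 2.65), and for Rbpj 1.20 (0.962 to 1.51). Notch1 (1.17, 0.663 to 2.07), Notch2 (1.03, 0.801 to 1.32), Jag2 (0.908, 0.561 to 1.47) and Adam10 (1.14, 0.926 to 1.396) held 1 as well. The interval thus left out 1 for 1 of the 7 compared genes. The share of all compared genes with such an interval was not computed, so that count has no background. The ratios were not recomputed under either scaling. The lines' uninduced cultures differed widely in these genes, and the part of that in these ratios was not tested.

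The rest of the pathway was followed with 49 further genes in 6 lists, all found in the table, of which 34 were compared. In the uninduced Hey2 line 24 of the 34 were higher than in the Hey1 line and 10 lower. Of all 10991 compared genes 6372 were higher and 4619 lower. The median difference of the 34 was 0.19, against 0.20 over all compared genes. Past 2-fold on the log2(RPKM + 1) scale 2 of the 34 were higher and 1 lower without induction, where 19.7% and 13.1% of all compared genes were. With induction 4 were higher and 2 lower, beside 22.8% and 12.3% of all genes, and the median was 0.25, against 0.27.

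Furin, the convertase that cuts the Notch precursor on its way to the surface, was the gene with the largest difference of the 34 without induction. It stood at 14.8 and 12.5 RPKM in the induced and uninduced Hey2 line and 80.6 and 78.9 RPKM in the induced and uninduced Hey1 line, 6.34-fold lower in the Hey2 line without induction (5.64 to 7.15) and 5.45-fold lower with it (5.004 to 5.94). Poglut1, which puts O-glucose on Notch EGF repeats, was 2.31-fold higher in the uninduced Hey2 line (1.74 to 3.09). In the induced Hey2 line Poglut1 was 2.20-fold higher (1.69 to 2.88). Rfng, a Fringe glycosyltransferase, was 2.26-fold lower in the induced Hey2 line (1.68 to 3.06) and 1.79-fold lower in the uninduced one (1.22 to 2.66). The other Fringe genes, Lfng and Mfng, were listed in the Hey2 line only, at 0.338 and 0.841 RPKM with induction and 0.838 and 0.853 RPKM without, from 8 to 16 reads, which is near the Hey1 line's floors of 0.584 to 0.737 RPKM. The median of the 5 compared proteases and glycosyltransferases was 0.09 without induction and 0.03 with it, and turned to −0.10 and −0.22 under median ratio scaling.

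Gamma-secretase subunit genes went both ways. Of 5 compared, 2 were higher and 3 lower in the uninduced Hey2 line, and 3 were higher and 2 lower in the induced one. Of all 10991 compared genes 6372 were higher and 4619 lower without induction, and 6604 and 4387 with it. The catalytic subunit gene Psen2 was 1.92-fold higher without induction (1.31 to 2.84) and 1.70-fold higher with it (1.16 to 2.53). Aph1a was 1.75-fold lower without induction (1.41 to 2.18) and 1.52-fold lower with it (1.26 to 1.82). Nicastrin (Ncstn) was 1.59-fold lower without induction (1.35 to 1.87) and 1.85-fold lower with it (1.61 to 2.12).

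Trafficking and ubiquitin ligase genes had a median of 0.21 over 10 compared genes without induction and 0.31 with it, which under median ratio scaling became −0.01 and 0.04. Neurl1a, a homologue of the fly ligand-internalising ligase Neuralized, was 3.72-fold higher in the uninduced Hey2 line (2.37 to 5.99) and 6.58-fold higher in the induced one (4.09 to 11.2). Itch, a ligase that acts on Notch, was 2.25-fold higher with induction (1.90 to 2.67), and Mib2, a ligase for Notch ligands, was 2.21-fold lower without it (1.65 to 2.99). Dtx4 was listed in the Hey2 line only, at 1.39 and 0.844 RPKM in induced and uninduced cells, at least 6-fold and 3.60-fold above the Hey1 line's floor. Dtx1, also blank in the Hey1 line, stood at 0.778 and 0.936 RPKM in the induced and uninduced Hey2 line, from 12 and 8 reads. The Hey1 line's floors for it were 0.897 and 0.909 RPKM, so a line difference was not detectable at this depth.

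For RBPJ cofactors the median was 0.35 without induction and 0.34 with it, over 11 compared genes, against 0.20 and 0.27 over all genes. Median ratio scaling brought it to 0.21 and 0.14, and a pseudocount of 0.1 RPKM to 0.56 and 0.52. The acetyltransferase gene Kat2a was 2.05-fold higher in the uninduced Hey2 line (1.72 to 2.46) and 2.23-fold higher in the induced one (1.88 to 2.66). Snw1 was 2.15-fold higher with induction (1.82 to 2.54), and Cir1, a corepressor of RBPJ, 2.97-fold higher without it (1.503 to 6.20). Among further receptors and ligands, Dlk1 was the only gene compared, 1.15-fold higher without induction (0.957 to 1.38) and 1.30-fold higher with it (1.11 to 1.53). Notch4 was read only in the Hey2 line, at 0.277 and 0.342 RPKM in induced and uninduced cells. The Hey1 line's floors for Notch4 were 0.202 and 0.205 RPKM. At those floors the counting intervals would hold 1 (0.608 to 3.31 and 0.678 to 4.26). Dll4 and Dlk2 were blank everywhere.

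Among the pathway's outputs only Hes1 and Hey1 were compared. Hes1, a direct Notch target, stood at 11.5 RPKM in both libraries of the Hey2 line and at 8.82 and 9.69 RPKM in the induced and uninduced Hey1 line. Its line ratio was 1.19 without induction (0.891 to 1.58) and 1.30 with it (1.009 to 1.69), and its induction ratios were 0.999 in the Hey2 line (0.774 to 1.30) and 0.911 in the Hey1 line (0.683 to 1.21). Hes5 and Heyl were blank in all 4 libraries. Hey1 itself was 11.7-fold higher with its own induction (6.48 to 23.1) and 2.46-fold lower with Hey2 induction (1.06 to 5.92, from 11 and 15 reads), and 17.9-fold lower in the induced Hey2 line than in the induced Hey1 line (9.68 to 36.6). Its line ratio without induction was 1.61 (0.703 to 3.76).

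With Hey2 induction 0 of the 34 pathway genes were higher by at least 25% on the log2(RPKM + 1) scale and 3 were lower: Hey1, Psen2 (1.34-fold, 0.972 to 1.85) and the alternative sheddase Adam17 (1.30-fold, 1.08 to 1.56). Of all compared genes 5.62% were higher and 5.9% lower by that much, so 3 of 34 is near that background. Furin was 1.19-fold higher (1.04 to 1.36), Ep300 1.20-fold (1.06 to 1.35), Spen 1.19-fold (1.008 to 1.41), Numbl 1.2499-fold (0.976 to 1.61) and Neurl1a 1.23-fold (0.936 to 1.63). The list medians ran from −0.08 for gamma-secretase and −0.03 for proteases and glycosyltransferases to 0.12 for RBPJ cofactors and 0.16 for trafficking genes.

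With Hey1 induction 2 of the 34 were higher by at least 25%, Hey1 and Rfng (1.30-fold, 0.981 to 1.72), and 0 lower, beside 3.28% higher and 12.6% lower of all compared genes. Hey1 is the induced gene itself. The coactivator gene Maml1 was 1.28-fold higher (1.05 to 1.56) and the ligand ligase gene Mib1 1.30-fold lower (1.03 to 1.64). Ratios of Cir1 (1.37, 0.633 to 3.03), Psen2 (0.840, 0.537 to 1.31), Aph1a (0.881, 0.739 to 1.05), Adam17 (0.928, 0.734 to 1.17), Neurl1a (0.694, 0.365 to 1.30) and Dlk1 (0.922, 0.771 to 1.10) all held 1. Dlk1 also held 1 with Hey2 induction, at 1.05 (0.890 to 1.23). Medians of the 4 lists with at least 5 compared genes lay between −0.10 and 0.08.

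**Figure D5:**
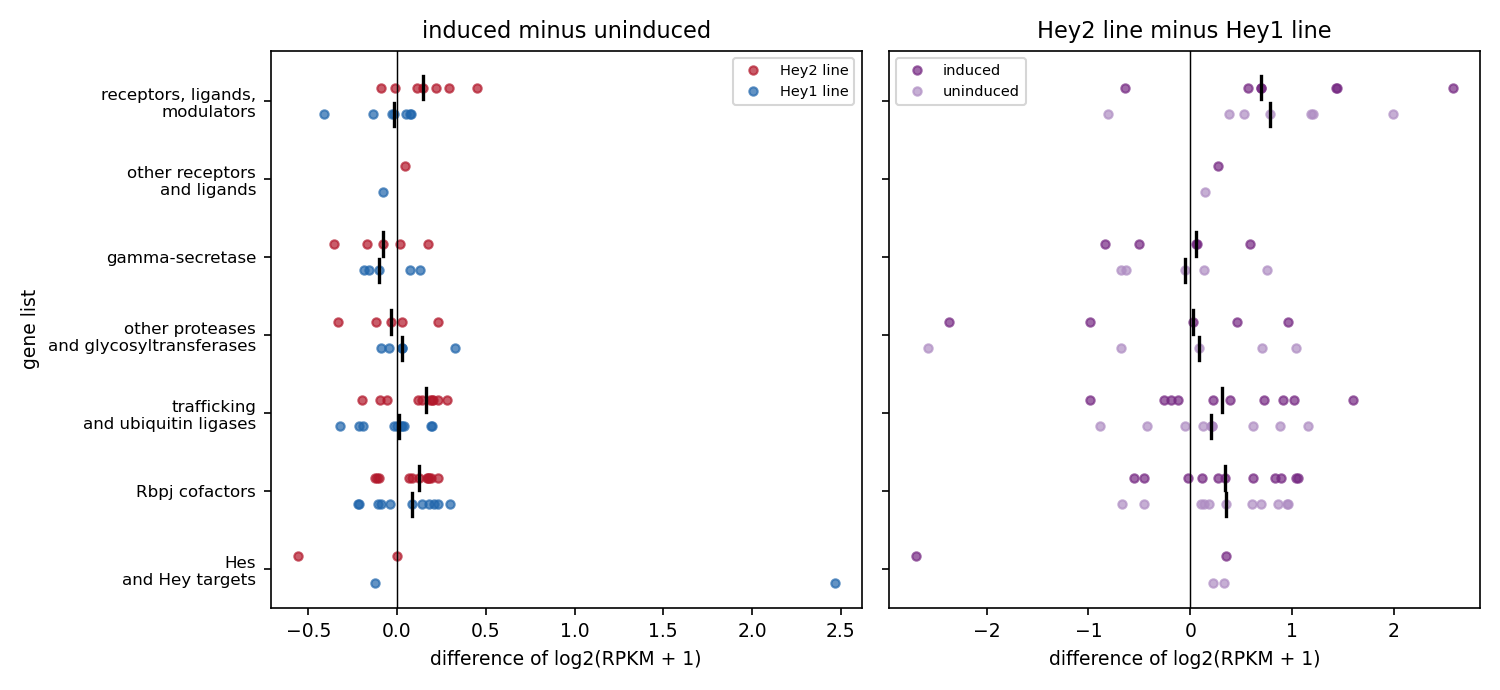
Differences of log2(RPKM + 1) for each compared gene, by list, induced minus uninduced in each line (left) and Hey2 line minus Hey1 line with and without induction (right), with black bars at medians of lists of more than 2 genes. The 7 compared core genes had line medians of 0.70 and 0.79, induced and uninduced, and Furin is the far left point among the proteases.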

How the data were processed

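RPKM values of 4 RNA libraries were deposited by the authors in 1 table, per the file headers, with a signed fold score for each induction that the authors also deposited and that was not used. The build was mm9, per the submitters' processing notes, which also list Bowtie 1.0, DESeq and MACS 1.4.1 without a role. The annotation, the counter, strand and the handling of multiple matches were not given in the sources used here.

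Whole reads were recovered as the smallest gene length of up to 25000 bases that made every listed value whole, which 15363 of 15371 genes met. The divisors were 10375000 and 5750000 reads (induced and uninduced Hey2 line) and 7500000 and 7400000 (induced and uninduced Hey1 line). Listing floors of 5 and 10 reads were read from genes whose RefSeq span (GRCm38.p6) gave whole reads. Ratios have exact conditional binomial intervals, levels exact Poisson intervals, and shares and ratios of ratios normal approximations on read counts. Differences use a pseudocount of 1 RPKM, and 6 exact copies of other rows were left out. Read recovery and intervals were tried on Poisson reads simulated with the recovered lengths and divisors. Such data cannot check those lengths, the divisors or the listing floors. No test across libraries was run, with 1 library per group. Alternatives were pseudocounts of 0.1 and 0, a mean of at least 5 RPKM, no filter, 2 scalings and a fold of 1.5. Members and lists were chosen with earlier results of these data known. Named pathway genes are those past the fold and at least the 2 with the largest difference in each list and comparison, plus genes blank in a line, which were picked after their values were seen. Some results that the rule would name are not reported here. Python 3.11.15, NumPy 2.4.6, pandas 2.3.3, SciPy 1.17.1 and Matplotlib 3.10.9 were used.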

Additional observations from a re-analysis of the deposited data

Results flagged for a closer look

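Ratios that went opposite ways in the 2 inductions were looked at again, although with 1 library per group this difference was not tested between cultures. Notch3 was the clearest, at 1.41 with Hey2 induction and 0.834 with Hey1 induction, whose own interval held 1, with a ratio of ratios of 1.69 whose counting interval left out 1. For Rbpj (1.20), Adam10 (1.14) and Jag2 (0.908) the interval held 1. How often such an interval left out 1 over all compared genes was not computed.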

How the results depend on the processing

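The number of members past a 25% difference with Hey1 induction was 1 (Jag1) and became 0 with a mean of at least 5 RPKM, which leaves 3 members and not Jag1, and 0 at a fold of 1.5. That mean left 2.75% of all genes higher and 13.2% lower with Hey1 induction. With Hey2 induction the number was 1 (Notch3), 2 at a pseudocount of 0.1 RPKM and 2 without one (with Notch1), and 0 at a fold of 1.5. Without a filter on the mean all 10 members were counted, with 1 higher (Notch3) and 1 lower (Dll3). Of all genes 5.85% were then higher and 7.01% lower. With a mean of at least 5 RPKM it was 1 of 3 members (Notch3), beside 4.61% of genes higher and 5.01% lower. Between the lines the number past 2-fold was 3 in each comparison, and 4 in each at a pseudocount of 0.1 and without one (with Jag2 uninduced and Jag1 induced). It was 2 of the 3 members left with a mean of at least 5 RPKM, and at a fold of 1.5 it was 5 without induction and 6 with it. At that fold 34.2% of all genes were higher and 21.9% lower without induction, and 37.0% and 21.1% with it. At a pseudocount of 0.1 the line shares were 25.4% and 16.3% without induction, and 28.4% and 15.5% with it. Without a pseudocount they were 26.1% and 16.7%, and 29.2% and 15.9%. With a mean of at least 5 RPKM they were 22.9% and 16.7%, and 25.6% and 15.8%. Of 124 recomputed member differences 112 lay within counting error of the value reported. The other 12 belonged to line comparisons, 8 of them Notch1 and Notch3 at smaller pseudocounts. With 1 library per group, no library could be left out and no paired analysis was possible. Of all genes, 3.28% higher and 12.6% lower with Hey1 induction became 5.93% and 19.0% at a pseudocount of 0.1, 6.44% and 19.9% without one and 0.455% and 2.01% at a fold of 1.5, and with Hey2 induction 5.62% and 5.9% became 9.24% and 9.05%, 9.64% and 9.63%, and 0.546% and 0.691%. The sign changed for Rbpj and Adam10 in the Hey1 induction under both scalings, at values of at most 0.07. Depth limits Dll1, Dll3 and Nrarp most.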
